A study of Mus musculus with 6 samples.

Results

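The miR-106b/25 cluster is a group of 3 microRNA hairpins (miR-106b, miR-93 and miR-25) on mouse chromosome 5, and miR-20b is a related miRNA from a cluster on chromosome X. Both clusters are paralogs of the miR-17/92 cluster. The members described here were the 5 mature miRNAs whose array name was mmu-miR-106b-5p, mmu-miR-106b-3p, mmu-miR-93-5p, mmu-miR-25-3p or mmu-miR-20b-5p, written below without the species prefix. They were 5 of the 1247 mouse miRNAs on the array and held 12 of its 3105 probes. All 5 were detected on all 6 arrays, as were 154 of the 1247 miRNAs. A probe was taken as detected if a share of 0.5 or more of its spots lay well above background by the scanner software's test, and a miRNA if any of its probes was.

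The cells were mProx24, a proximal tubular cell line of mouse strain C57B6, and 6 conditions were each measured on 1 array for mouse miRNAs with a single dye. The control was kept at 20% oxygen, labelled NG and PBS. The high glucose culture was kept at 20% oxygen, labelled HG and PBS, and the palmitate culture, titled High FFAs, at 20% oxygen with NG and 150 µM palmitate bound to 0.15% bovine serum albumin for 9 h. The hypoxia culture was kept at 1% oxygen for 12 h with NG and PBS. The triple stimuli culture combined 1% oxygen, HG and palmitate, and the last culture had the same 3 stimuli after 12 h with 0.4 µg/ml rapamycin, an inhibitor of the mTOR kinase. All cultures shared the same serum-containing medium, and 100 ng of total RNA from each was labelled with Cy3. The labels state no glucose concentration. They name albumin only for the palmitate cultures, and its part cannot be told apart from that of palmitate.

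MicroRNAs are short RNAs that guide Argonaute proteins to messenger RNAs, mainly through the seed, the bases near the 5′ end. A hairpin can give a mature miRNA from either arm, and the arm that is kept by Argonaute is usually far more abundant than the other. The miR-17 seed family is known for binding transcripts of cell cycle and survival regulators such as Cdkn1a and E2f1, and the miR-25/92 seed family for binding the transcript of the pro-apoptotic protein Bcl2l11. The miR-106b/25 hairpins lie in an intron of Mcm7, which codes for a subunit of the replicative DNA helicase, and are transcribed with it.

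The mature sequences are shown with the seed, bases 2 to 8, in capitals, because the seed divides the members into 3 groups. They were taken from RefSeq annotation of GRCm38.p6, which matched 5 of 5 members and 1017 of the 1247 array names. miR-106b-5p, miR-93-5p and miR-20b-5p share 1 seed with miR-17-5p and miR-20a-5p of the miR-17/92 cluster.
miR-106b-5p: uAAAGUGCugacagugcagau
miR-93-5p: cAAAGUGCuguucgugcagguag
miR-20b-5p: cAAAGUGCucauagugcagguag
miR-20a-5p: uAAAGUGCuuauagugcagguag
miR-17-5p: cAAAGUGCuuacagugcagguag
miR-25-3p carries another seed, which it shares with miR-92a-3p.
miR-25-3p: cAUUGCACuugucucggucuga
miR-92a-3p: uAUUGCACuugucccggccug
miR-106b-3p, the other arm of the miR-106b hairpin, has a seed found in no other mature miRNA of the RefSeq table.
miR-106b-3p: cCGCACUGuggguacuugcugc

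Counted from the 5′ end, miR-20b-5p differed from miR-20a-5p at 2 of 23 bases (C1U and C10U) and from miR-93-5p at 3 (C10G, A11U and A13C). miR-106b-5p differed from miR-17-5p at 3 of 21 compared bases (U1C, G10U and A20G). Over 21 compared bases miR-25-3p differed from miR-92a-3p at 3 (C1U, U14C and U18C). None of these differences lies in the seed. The first seed occurred in 7 RefSeq mature miRNAs, of which miR-106a-5p was not analysed here under its own name, and the seed of miR-25-3p occurred in 6.

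On GRCm38.p6 the 3 hairpins of the chromosome 5 cluster lie on the minus strand within 498 bases, inside the bounds of Mcm7 (chr5:138164583-138172111). In the order of transcription they are Mir106b (chr5:138165737-138165818), Mir93 (chr5:138165523-138165610) and Mir25 (chr5:138165321-138165404). Mir20b lies on the minus strand of the X chromosome (chrX:52742113-52742192), between Mir18b and Mir19b-2 in the cluster that runs from Mir106a to Mir363. The RefSeq hairpin of miR-106b is printed because both of its arms were measured, with the 2 mature arms in capitals and miR-106b-5p first.
Mir106b: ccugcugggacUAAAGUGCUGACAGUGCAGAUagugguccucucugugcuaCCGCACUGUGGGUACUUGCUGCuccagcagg

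Close relatives can pair with each other's probes, so the reach of each probe was searched in the RefSeq mature sequences. The brightest probes of the 5 members were fully complementary to no other of 1679 mature mouse miRNAs. The probe of miR-20b-5p came nearest to another miRNA, with 1 mismatch to miR-20a-5p. The brightest probes of this pair are shown with the base that differs, number 14 from the probe's 5′ end (G14A), in capitals.
miR-20b-5p probe: ctacctgcactatGagcact
miR-20a-5p probe: ctacctgcactatAagcac
The miR-106b-5p probe had 2 mismatches to miR-17-5p and miR-106a-5p. The miR-93-5p probe had 3 to miR-20a-5p and miR-20b-5p. Paired over their whole length, the probes of miR-25-3p and miR-106b-3p had 4 to their nearest other miRNA. The miR-25-3p probe pairs with bases 5 to 22, and miR-92a-3p has only 21 bases. Within that stretch miR-92a-3p differs from miR-25-3p at U14C and U18C, so it is closer to this probe than the count of 4 shows. The miR-92a-3p probe had 2 mismatches to miR-25-3p. How much relatives added to each other's signal was not tested, and the values of miR-20b-5p and miR-20a-5p are therefore uncertain as separate measurements. The 13-base probe of miR-17-5p was also fully complementary to miR-106a-5p, and those 2 could not be separated.

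With 1 array per condition, the only measured error was the spread over spots of a probe, and a difference between 2 arrays has no replicate check. The value of a miRNA was the mean intensity of its brightest probe, scaled so that all arrays shared the same 75th percentile over the 281 probes detected on every array. Between 162 and 194 miRNAs were detected per array, the unscaled 75th percentile ran from 295 on the control array to 382 on the rapamycin array, and no spot of a miRNA probe was saturated. All arrays lay on 1 slide, and its 2 rows held the 20% and the 1% oxygen arrays, so oxygen and slide row cannot be told apart. Of 11 markers of proximal tubule and kidney epithelium, 7 were detected on all arrays (the miR-30 and miR-10 members), while miR-192, miR-194, miR-215 and miR-204 were not well above background on any. The miR-200 family of epithelial cells was likewise not well above background, with 0 of 5 detected, and 0 of 6 blood, 0 of 2 endothelial and 0 of 4 fibroblast and smooth muscle markers were detected.

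The high glucose and palmitate arrays carry a doubt about their labels. In the authors' deposited table of processed values, the high glucose column equalled the scanner values deposited under palmitate, up to 1 factor and within 0.1%, for 82.1% of detected miRNAs. Its palmitate column equalled the scanner values deposited under high glucose for 81.5%, whereas each matched its own scanner values for at most 1.06%. The other 4 columns matched their own scanner values for 82.9% to 83.8%. The values here follow the scanner files, and an exchange of the 2 labels would exchange the high glucose and palmitate values of each member.

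Of the members that share the miR-17 seed, miR-106b-5p gave nearly the same level on every array. Its scaled intensity was 248 ± 11.8 (SD over spots) on the control array, 246 ± 16.0 with high glucose, 244 ± 9.54 with palmitate, 253 ± 13.8 in hypoxia, 258 ± 11.4 with the triple stimuli and 246 ± 14.9 with added rapamycin. The triple stimuli array was highest and the palmitate array lowest, and no neighbours in this order differed by more than 2 standard errors over spots. The whole range was 0.08 on the log2 scale, rank 2 from the narrowest of the 154 miRNAs detected on all arrays, whose median range was 0.32. The rank depended on the scaling: without any scaling its range was 0.36 and its rank 62.

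miR-93-5p, the next hairpin of the same transcript and the same seed family, was also close to level by its brightest probe. Its scaled intensity was 700 ± 62.2 (SD over spots) on the control array, 647 ± 61.8 with high glucose, 682 ± 23.9 with palmitate, 650 ± 33.9 in hypoxia, 688 ± 26.7 with the triple stimuli and 708 ± 39.9 with rapamycin. The high glucose and hypoxia arrays were lowest and did not differ from each other by more than 2 standard errors. The step from hypoxia to the next array, palmitate, was 0.07 on the log2 scale (spot SE 0.02), the only step in the order that passed 2 standard errors. The range over arrays was 0.13 on the log2 scale, rank 8 from the narrowest of 154, and between rank 7 and rank 70 over the processing alternatives.

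miR-20b-5p is the chromosome X member of this seed family. Its scaled intensity was 196 ± 16.0 (SD over spots) on the control array, 207 ± 12.4 with high glucose, 185 ± 15.0 with palmitate, 168 ± 13.5 in hypoxia, 195 ± 17.1 with the triple stimuli and 196 ± 10.6 with rapamycin. The hypoxia array stood lowest and the high glucose array highest, while the control, triple stimuli and rapamycin arrays lay together. The steps below the palmitate array and above the rapamycin array passed 2 standard errors over spots. The range was 0.31 on the log2 scale, rank 71 of 154, and it depended on the processing. It ran from 0.14 to 0.41, between rank 7 and rank 77, and was narrower than those of miR-106b-5p and miR-93-5p with quantile normalisation, with the software sum and in the authors' deposited table.

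miR-25-3p, the last hairpin of the chromosome 5 cluster, has the miR-25/92 seed. Its scaled intensity was 655 ± 56.4 (SD over spots) on the control array, 637 ± 50.9 with high glucose, 659 ± 42.7 with palmitate, 664 ± 44.7 in hypoxia, 722 ± 54.1 with the triple stimuli and 726 ± 27.4 with rapamycin. The 2 arrays that combined all stimuli were highest, and the step of 0.12 on the log2 scale (spot SE 0.03) between them and hypoxia was the only one past 2 standard errors. The range was 0.19 on the log2 scale, rank 28 of 154, but 0.52 and rank 102 without scaling.

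miR-106b-3p, the other arm of miR-106b, was measured close to background. Of its 4 probes, only the longest, with 15 bases, was detected, and it lay well above background on 70% to 100% of 10 spots per array. Its scaled intensity was 42.7 ± 10.73 (SD over spots) on the control array, 35.2 ± 10.99 with high glucose, 40.1 ± 12.5 with palmitate, 33.8 ± 5.03 in hypoxia, 37.7 ± 4.68 with the triple stimuli and 34.3 ± 8.32 with rapamycin. The control array was highest and the hypoxia array lowest, but no neighbours in the order differed by more than 2 standard errors. Before scaling the same spots read 33.6 to 38.7 on all 6 arrays, and the control array was not the highest. The range after scaling was 0.33 on the log2 scale, rank 82 of 154, and between rank 16 and rank 117 over the processing alternatives.

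**Figure D1:**
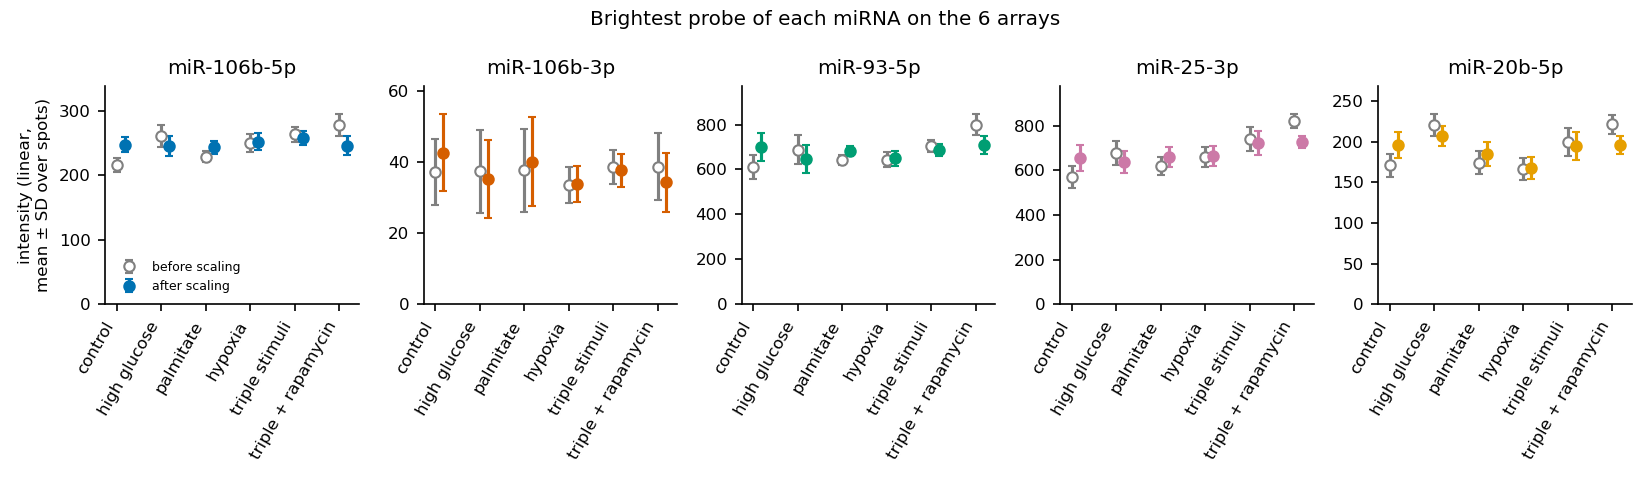
Linear intensity of the brightest probe of each member (vertical axes, starting at 0) on the 6 arrays (horizontal axes), before scaling (open grey circles) and after scaling to a common 75th percentile (filled circles), as mean ± SD over spots. After scaling miR-106b-5p lies between 244 and 258 on every array, and the spot SD of miR-106b-3p spans most of the distance between its arrays.

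Comparisons with the control array asked what each stimulus did alone and in combination. A difference was called where both arrays detected the miRNA, the fold was at least 1.5 and the difference was more than 2 standard errors over spots. Medians, highest and lowest values over all miRNAs are likewise over those that both arrays detected. No member was called in any of the 8 two-array comparisons, which gave 40 member values. The largest was 1.26-fold, for miR-106b-3p in hypoxia, and 17 of the 40 passed 2 standard errors over spots. The share of all miRNAs past 2 standard errors alone was not computed. Passing that limit, here and below, is therefore not to be read as particular to the members.

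For high glucose minus control, 0 of 5 members were called, against 6.79% of the 162 miRNAs detected on both arrays. The difference was -0.11 on the log2 scale for miR-93-5p (spot SE 0.04) and 0.08 for miR-20b-5p (spot SE 0.03). The other 3 were within 2 standard errors of no difference: miR-106b-5p at -0.01, miR-25-3p at -0.04 and miR-106b-3p at -0.28 (spot SE 0.18). The median over all miRNAs tested was -0.05, and the differences between these arrays reached 2.53 for miR-5126 and -0.58 for miR-99b-3p.

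For palmitate minus control, 0 of 5 members were called, against 2.58% of 155 miRNAs. All members lay between -0.09 (miR-106b-3p, spot SE 0.18) and 0.01 (miR-25-3p, spot SE 0.04) on the log2 scale. miR-20b-5p, at -0.08, was the only one past 2 standard errors over spots, while the median over all miRNAs was -0.03. Among all miRNAs miR-1897-5p was highest at 0.53 and miR-6366 lowest at -0.81.

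For hypoxia minus control, 0 of 5 members were called, against 1.85% of 162 miRNAs. Here the members divided: on the log2 scale miR-106b-3p was at -0.33 (spot SE 0.14), miR-20b-5p at -0.22 (spot SE 0.04) and miR-93-5p at -0.11 (spot SE 0.03), each past 2 standard errors over spots. miR-106b-5p, at 0.03, and miR-25-3p, at 0.02, were not. The median over all 162 miRNAs was -0.11, the same as the value of miR-93-5p, and the range ran from -0.80 for miR-714 to 0.45 for miR-3102-5p. miR-210-3p was not detected on the control array and so is not among the 162. Its log2 value was 4.63 there and 8.02 in hypoxia.

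For the triple stimuli minus control, 0 of 5 members were called, against 5.59% of 161 miRNAs. miR-25-3p was at 0.14 on the log2 scale (spot SE 0.04) and miR-106b-5p at 0.06 (spot SE 0.02), both past 2 standard errors over spots. miR-20b-5p was at -0.01, miR-93-5p at -0.03 and miR-106b-3p at -0.18 (spot SE 0.13). The median over the 161 miRNAs was 0.01, with miR-5126 highest among them at 1.39 and miR-202-3p lowest at -0.48. They do not include miR-210-3p, whose log2 value was 4.63 on the control array, not detected, and 7.78 with the triple stimuli.

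With rapamycin added, 0 of 5 members were called against the control, where 9.15% of 164 miRNAs were. miR-25-3p was at 0.15 on the log2 scale (spot SE 0.03), the only member past 2 standard errors over spots. miR-106b-5p at -0.01, miR-20b-5p at 0.00 and miR-93-5p at 0.02 were close to the control, and miR-106b-3p was at -0.31 (spot SE 0.16). The median over the 164 miRNAs was -0.11, with miR-5126 highest among them at 2.02 and miR-712-5p lowest at -0.89. miR-210-3p is again left out, with a log2 value of 7.69 on the rapamycin array.

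**Figure D2:**
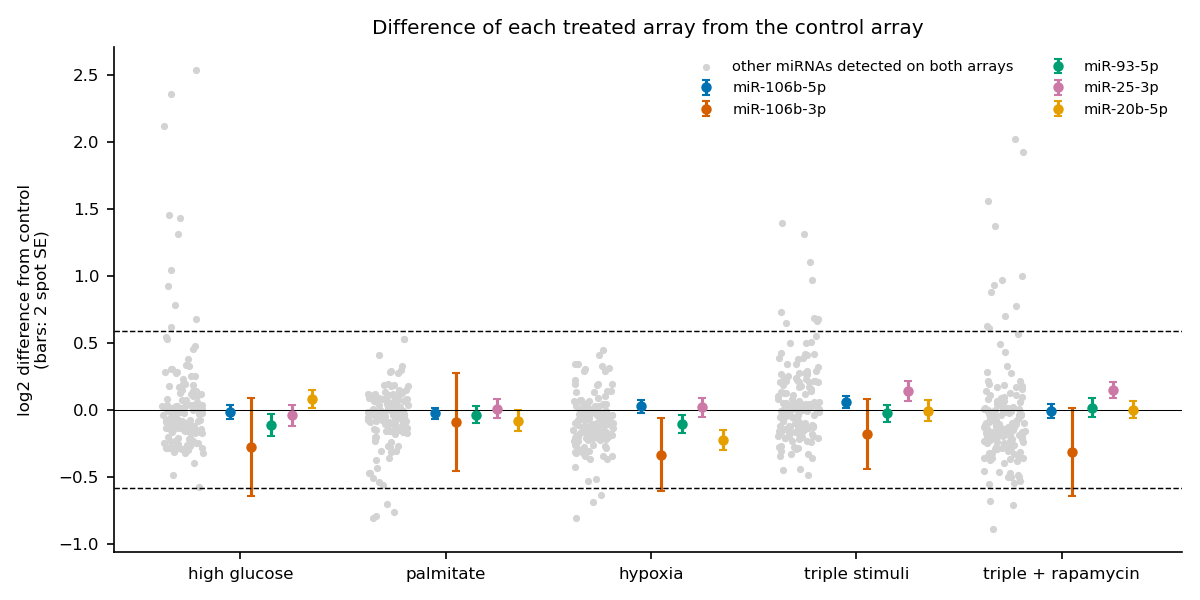
Log2 difference of each treated array from the control array (vertical axis) for the 5 members (coloured points, bars of 2 standard errors over spots) and for the other miRNAs detected on both arrays (grey points). Dashed lines mark 1.5-fold. All member points lie between -0.33 and 0.15 and inside the dashed lines, while miR-5126 reached 2.53 in high glucose.

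The remaining comparisons share an array with those above and so are not independent of them. For the triple stimuli minus hypoxia alone, 0 of 5 members were called, against 8.77% of 171 miRNAs. All 5 differences were above 0, from 0.03 for miR-106b-5p to 0.22 for miR-20b-5p (spot SE 0.04), beside a median of 0.10 over all miRNAs. The scaled intensity of miR-20b-5p was 195 in the combination and 168 in hypoxia alone, beside 196 on the control array. Among all miRNAs, miR-5126 was highest at 1.05 and miR-140-5p lowest at -0.29.

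For the triple stimuli minus high glucose, 0 of 5 members were called, against 6.63% of 181 miRNAs. miR-25-3p was at 0.18 on the log2 scale (spot SE 0.04), miR-93-5p at 0.09, miR-106b-5p at 0.07 and miR-20b-5p at -0.09 (spot SE 0.03), all past 2 standard errors over spots. miR-106b-3p was at 0.10 (spot SE 0.16). With the labels of the high glucose and palmitate arrays exchanged, miR-20b-5p turned to 0.07 and miR-106b-3p to -0.09, and the others kept their sign. miR-210-3p, a miRNA known to be induced by low oxygen, was highest among all miRNAs at 3.18, and miR-290-5p lowest at -1.35.

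For rapamycin on top of the triple stimuli, 0 of 5 members were called, against 3.8% of 184 miRNAs. miR-106b-5p was at -0.07 on the log2 scale (spot SE 0.02), past 2 standard errors over spots. miR-93-5p at 0.04, miR-25-3p at 0.01, miR-20b-5p at 0.01 and miR-106b-3p at -0.14 (spot SE 0.13) were not. The median over all was -0.07, with miR-290-5p highest at 0.66 and miR-712-5p lowest at -0.68.

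The 2 probes of a miRNA gave a second reading of each difference from control. They were at most 0.09 apart on the log2 scale for miR-106b-5p and miR-25-3p, 0.11 for miR-20b-5p and 0.17 for miR-93-5p. The spot errors above do not hold these gaps between probes. The 2 probes of miR-25-3p had the same sign in 5 of 5 comparisons with control, those of miR-93-5p and miR-20b-5p in 4 and those of miR-106b-5p in 3. In hypoxia the shorter probe of miR-20b-5p gave -0.17, beside -0.22 from the brightest. The shorter probe of miR-93-5p lay below control on all 5 treated arrays, from -0.21 in hypoxia to -0.15 with rapamycin. The brightest probe gave -0.11 and 0.02 on those arrays, so the place of the control array in the order depends on the probe.

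The design also divides the 6 arrays 3 against 3 by oxygen, by glucose and by palmitate, which allows limma's moderated test. P-values were adjusted by Benjamini-Hochberg over the 154 miRNAs that every array detected. The arrays on a side are different conditions, not replicates, and the p-values measure the spread among these 6 arrays. The triple stimuli and rapamycin arrays lie together on the stimulated side of all 3 splits. The splits are therefore not independent of each other, and rapamycin is only on that side. By oxygen, limma called 0 of 5 members and 0% of all miRNAs at an adjusted p under 0.05, and 7 of the 154 had an unadjusted p under 0.05. miR-25-3p had a mean log2 value of 9.46 ± 0.07 (SD, n = 3) at 1% oxygen and 9.34 ± 0.03 (SD, n = 3) at 20%. It was higher on each of the 3 arrays at 1% oxygen than on any at 20%, the only member whose sides did not overlap, which 11% of all miRNAs also showed. The nearest arrays of the 2 sides, hypoxia and palmitate, were 0.01 apart (spot SE 0.03). The difference between the sides was 0.11 (SE 0.07, limma adjusted p = 0.884), with a 95% interval of 0.969-fold to 1.21-fold.

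By oxygen, miR-106b-3p differed by -0.15 (SE 0.09, limma adjusted p = 0.884) and miR-20b-5p by -0.08 (SE 0.09, limma adjusted p = 0.930). The 95% interval for miR-106b-3p ran from 0.767-fold to 1.05-fold. miR-106b-5p, at 0.04, and miR-93-5p, at 0.01, had intervals that stayed within 0.900-fold to 1.13-fold.

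By glucose, limma called 0 of 5 members but 9.74% of all miRNAs, 13 higher and 2 lower in the cultures labelled HG. The sides overlapped for every member, while they did not for 29.2% of all miRNAs. The largest member difference was that of miR-20b-5p, 0.13 (SE 0.08, limma adjusted p = 0.450), with a 95% interval of 0.960-fold to 1.24-fold. miR-106b-3p followed at -0.12 (SE 0.10, limma adjusted p = 0.614), then miR-25-3p at 0.07, miR-106b-5p and miR-93-5p each at 0.01. This count changed with 2 choices of scaling. Without scaling, miR-20b-5p passed (0.32, SE 0.07, limma adjusted p = 0.0134), and with quantile normalisation miR-106b-3p did (-0.38, SE 0.08, limma adjusted p = 0.0350). The 9.74% does not cover these 2 settings, and their shares of all miRNAs are not given here. Without scaling, the median over all miRNAs minus control was 0.23 with high glucose, 0.24 with the triple stimuli and 0.26 with rapamycin. It was 0.07 with palmitate and 0.08 in hypoxia. The part of this shift in the value of miR-20b-5p was not tested.

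By palmitate, limma called 0 of 5 members and 0% of all miRNAs, and 5 of the 154 had an unadjusted p under 0.05. The sides overlapped for every member, while 7.79% of all miRNAs did not overlap. miR-25-3p differed most, by 0.11 (SE 0.07, limma adjusted p = 0.909), with a 95% interval of 0.959-fold to 1.21-fold. Exchanging the labels of the high glucose and palmitate arrays exchanges the glucose and palmitate values and leaves 0 members past the threshold in both.

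Changes within an array can be set against each other without a choice of scaling factor. The change of miR-106b-5p from control exceeded that of miR-106b-3p, its hairpin partner, on all 5 treated arrays. The gap between the arms was 0.27 on the log2 scale with high glucose (spot SE 0.18), 0.06 with palmitate (spot SE 0.18), 0.36 in hypoxia (spot SE 0.14), 0.24 with the triple stimuli (spot SE 0.13) and 0.31 with rapamycin (spot SE 0.17). It passed 2 standard errors in hypoxia alone and reached 1.5-fold on no array. Over all settings compared it stayed above 0 except for palmitate, where it ran from -0.05 to 0.26. The 0.26 came from the authors' deposited table, whose palmitate column matched the scanner values deposited under high glucose. All 5 gaps share the control array, on which miR-106b-3p was highest. Its probe was well above background on 100% of spots there and on 70% to 90% on the treated arrays, and the part of this in the gap was not tested.

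The pair of miR-25-3p and miR-92a-3p, which share a seed but lie on different clusters, changed unequally. miR-92a-3p lay below control on all treated arrays, at -0.14 on the log2 scale with high glucose, -0.04 with palmitate, -0.27 in hypoxia, -0.12 with the triple stimuli and -0.10 with rapamycin. The change of miR-25-3p exceeded it by 0.10 with high glucose (spot SE 0.05), 0.05 with palmitate, 0.29 in hypoxia, 0.27 with the triple stimuli and 0.25 with rapamycin. All but the palmitate value passed 2 standard errors, with spot SEs of 0.04 to 0.05, and the last 3 are those of the arrays at 1% oxygen. Over the settings compared, the excess in hypoxia ran from 0.25 to 0.37, with the triple stimuli from 0.22 to 0.29 and with rapamycin from 0.23 to 0.28. With high glucose it ran from 0.07 to 0.12. The 0.07 came from the authors' deposited table, whose high glucose column matched the scanner values deposited under palmitate. These gaps were below 1.5-fold, and each condition has 1 array. All of them share the control array, on which miR-92a-3p was highest, and the part of this in the gaps was not tested.

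The pair of miR-20b-5p and miR-20a-5p has probes 1 base apart and showed nearly equal changes. miR-20a-5p was at 0.06 with high glucose, -0.12 with palmitate, -0.21 in hypoxia, 0.01 with the triple stimuli and -0.03 with rapamycin. The change of miR-20b-5p differed from it by -0.02 to 0.04, within 1 spot SE of 0.05 on each array. With quantile normalisation the gap ran wider, to -0.15 with the triple stimuli. Since the probes differ at 1 base, pairing of each RNA with the other's probe cannot be told apart from 2 RNAs that vary together.

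**Figure D3:**
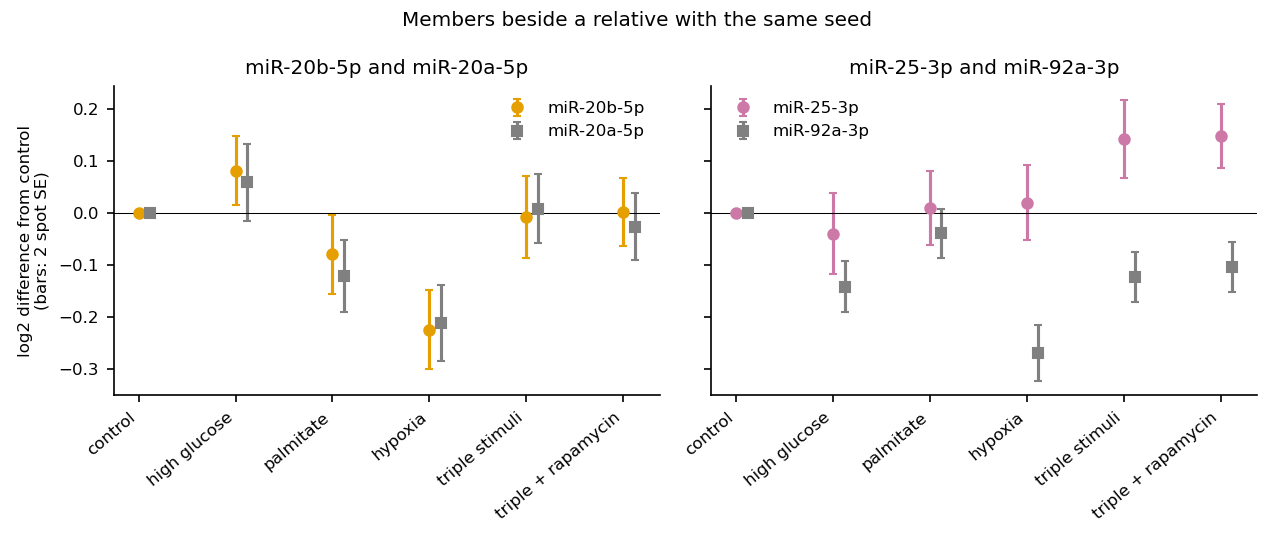
Log2 difference from the control array (vertical axes) on the 6 arrays for miR-20b-5p beside miR-20a-5p and for miR-25-3p beside miR-92a-3p, with bars of 2 standard errors over spots. The first pair overlaps on every array, and miR-25-3p lies above miR-92a-3p on all 5 treated arrays, by 0.05 and 0.10 on those at 20% oxygen and by 0.25 to 0.29 on the 3 at 1% oxygen.

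The 26 relatives came from miR-17/92, the chromosome X cluster of miR-20b, the other arms of the chromosome 5 cluster and the seed families. miR-6383, which has the seed of miR-106b-5p, was not among the 26 and was detected on 0 arrays. Of the 26, 25 were on the array by name and 7 were detected on all 6 arrays. The 7 were miR-17-5p, miR-17-3p, miR-18a-5p, miR-19a-3p, miR-20a-5p, miR-19b-3p and miR-92a-3p, which all have a hairpin in miR-17/92. miR-19b-3p and miR-92a-3p have identical copies in the chromosome X cluster, and the probe of miR-17-5p also fits miR-106a-5p of that cluster. For these the array cannot tell which cluster gave the signal. miR-93-3p, miR-25-5p and miR-20b-3p, the other arms of the remaining members, were not well above background on any array. None of the 7 was called against control, where the highest was miR-19a-3p at 0.42 on the log2 scale with the triple stimuli (spot SE 0.07) and the lowest miR-92a-3p in hypoxia.

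With single stimuli, the highest relative was miR-17-5p at 0.15 with high glucose and miR-19a-3p at 0.13 with palmitate and 0.19 in hypoxia. The lowest was miR-92a-3p with high glucose and miR-17-5p at -0.17 with palmitate. Against control with rapamycin, the relatives ran from -0.17 for miR-19a-3p to 0.15 for miR-17-3p. Against hypoxia the triple stimuli left all 7 higher, from 0.09 for miR-18a-5p to 0.35 for miR-17-3p, and against high glucose they ran from -0.14 for miR-17-5p to 0.44 for miR-19a-3p.

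The only called relative was miR-19a-3p, a miRNA of the miR-17/92 cluster, when rapamycin was added to the triple stimuli. Its scaled intensity was 58.3 with the triple stimuli and 38.5 after rapamycin, a difference of -0.60 on the log2 scale (spot SE 0.05). Thus 1 of 7 relatives was called lower and 0 higher, beside 3.8% of 184 miRNAs called in either direction, 3 of them lower. The call held in 6 of 12 settings. The 6 include the reported one and the exchange of labels, which leaves both arrays of this comparison as reported. Over the 12 settings the difference ran from -0.65 to -0.32 (normexp background correction). The highest relative in that comparison was miR-92a-3p at 0.02. The members lay between -0.14 and 0.04 in the same comparison.

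The miRNAs whose 6 log2 values were most like those of a member were found by Pearson correlation among the 153 others detected on all arrays. These correlations rest on 6 arrays that share a slide and a scaling factor each, and are given as descriptions. miR-20b-5p was nearest to miR-20a-5p (r = 0.97), followed by miR-709 (0.93) and miR-31-3p (0.92). miR-25-3p was nearest to miR-125b-5p (0.93), miR-5128 (0.89) and miR-151-5p (0.88), and miR-93-5p to let-7e-5p (0.85), miR-183-5p (0.82) and miR-125b-5p (0.76). For miR-106b-5p the nearest were miR-30b-5p (0.90), miR-3968 (0.88) and miR-5100 (0.87), and for miR-106b-3p they were miR-99b-5p (0.92), miR-140-3p (0.92) and miR-342-3p (0.91).

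No member had another member among its 3 nearest. Within the chromosome 5 cluster the highest correlation was that of miR-93-5p with miR-25-3p (0.62), and the arms of miR-106b gave -0.16. The match of miR-20b-5p to miR-20a-5p was ranked first of 153 under 8 of the 11 settings compared, and 17th with quantile normalisation (0.42). The correlation of the 2 arms changed sign with the scaling, from -0.33 on even-numbered spots to 0.72 with the percentile taken over all probes.

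**Figure D4:**
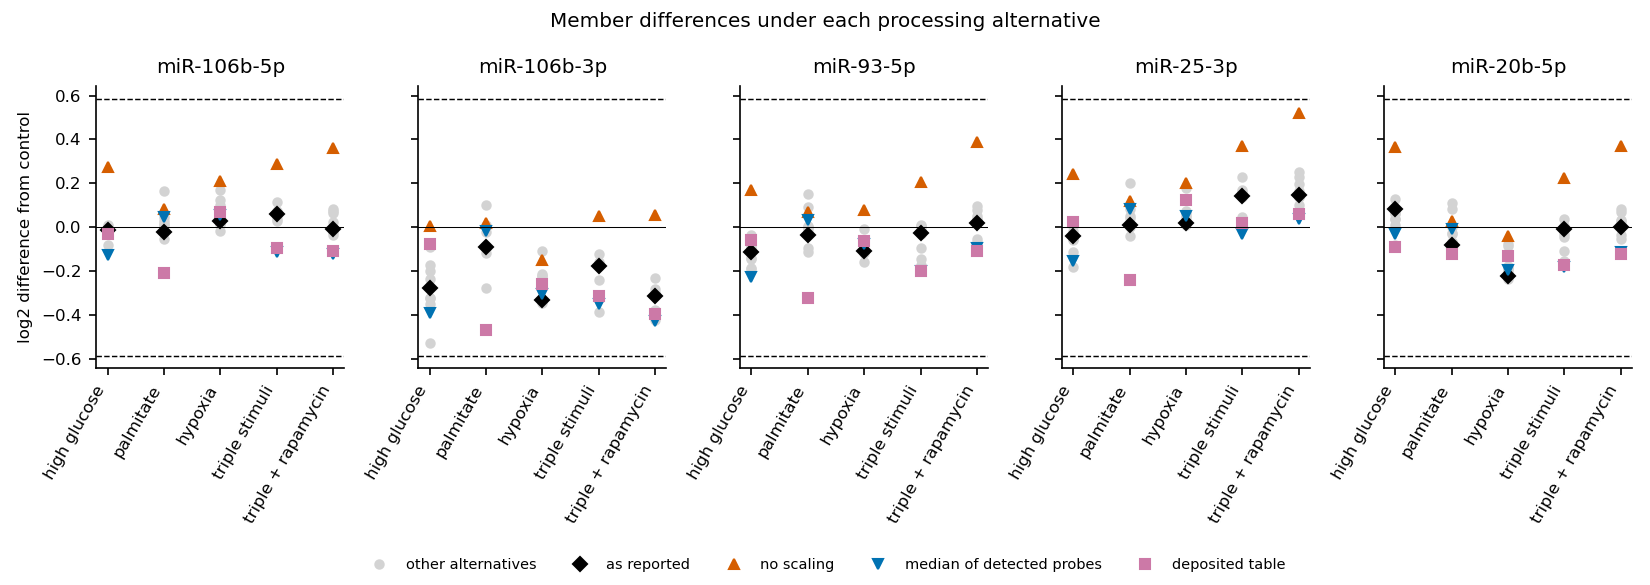
Log2 difference of each member from the control array (vertical axes) on the 5 treated arrays (horizontal axes), as reported (black diamonds) and under each processing alternative (other symbols), with dashed lines at 1.5-fold. No symbol crosses a dashed line, and the values without scaling lie above the others on the rapamycin array, up to 0.52 for miR-25-3p.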

How the data were processed

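Total RNA of mProx24 cells was measured on Agilent mouse miRNA arrays, 1 array for each of 6 conditions. Per the file headers, Agilent Feature Extraction 10.7.3.1 read the images, took background off each spot and marked outliers. The authors' deposited spot values are linear intensity values with no normalisation between arrays. The authors' deposited table holds a linear, uncentred signal per miRNA. For 81.5% to 83.8% of detected miRNAs it equals the software's sum divided by 1 factor per array, and how that factor was chosen is not stated in these sources.

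Spots flagged as outliers (4.26% to 4.44% per array) and control spots were left out. The mean intensity of the brightest probe was scaled to the array's 75th percentile over probes detected on all arrays, floored at the array's lowest detected probe and turned to log2. Levels of different miRNAs were not compared. The members and lists were chosen with earlier results of these data known. The miRNAs named are the members, the highest, lowest and called relatives and the highest and lowest miRNA of each comparison, and the 3 nearest to each member by correlation. The splits were fitted with limma 3.58.1 in R 4.3.3, over 154 miRNAs, and the script was tested on simulated data. Nothing says that the arrays came from separate experiments, so errors over spots are technical. The number of arrays limits the precision.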

Additional observations from a re-analysis of the deposited data

How the results depend on the processing

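The 40 member values from the two-array comparisons were recomputed under 11 alternatives, of scaling, background, probe, spots, source table and labels. The exchange of labels can change only the comparisons that hold the high glucose or palmitate array. Of the 440 values, 101 had the other sign and 0 were called; the largest was 0.53 in size on the log2 scale (miR-106b-3p in high glucose, quantile normalisation). Only 5 of 40 kept their sign under all of them, and small signs are therefore not to be read. Of these 5, miR-20b-5p in hypoxia stayed between -0.24 and -0.04 and miR-106b-3p in hypoxia between -0.35 and -0.11. The others were above 0. miR-25-3p stayed between 0.01 and 0.20 in hypoxia and between 0.04 and 0.52 with rapamycin, both against control. miR-93-5p stayed between 0.03 and 0.27 for rapamycin against the triple stimuli. Without scaling, miR-106b-3p was at 0.01 with high glucose, 0.05 with the triple stimuli and 0.06 with rapamycin. The number of members past limma's threshold by glucose was 1 without scaling and 1 with quantile normalisation, against 0 as reported. It stayed at 0 by oxygen and by palmitate under every alternative, and by glucose with each array left out. No paired analysis was possible because each condition has 1 array. Counts over all miRNAs moved more, from 4 to 20 for high glucose and from 0 to 16 for palmitate. The 4 came with the labels exchanged. The 0 came with a stricter limit of 2-fold, which is not 1 of the 11 alternatives. Among those the lowest count for palmitate was 3, with normexp background correction and with the mean of all probes. The 16 came from the deposited table, whose palmitate column matched the scanner values deposited under high glucose. Small signal over background limits miR-106b-3p.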

Other observations

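The genome positions that the array's files give for minus-strand probes do not fall on the mature arms of RefSeq. Of 978 probes of mature miRNAs on the minus strand, 0 lay inside their own arm, and 976 did when the position was mirrored within the hairpin, whereas 1280 of 1305 plus-strand probes lay inside their own arm as given. All 12 member probes are on the minus strand, so the positions in the report are those of RefSeq.

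In the authors' deposited table, the members' differences from control ran from -0.47 (miR-106b-3p, palmitate column) to 0.13 (miR-25-3p, hypoxia column) on the log2 scale. The palmitate column was the lowest for miR-93-5p, at 9.19 beside 11.5 for the control, a difference of -0.32 on the log2 scale. For miR-25-3p it was at 9.83 beside 11.6, a difference of -0.24. The median difference over all miRNAs in that column was also -0.24, so most of these values is shared by the whole column. Since that column matched the scanner values deposited under high glucose, it does not describe the palmitate array of the report.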
